A study of Sus scrofa with 12 samples.

Results

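The miR-101, miR-148 and miR-152 families were described in the testes of boars from small RNA sequencing of the Hezuo pig (HZ), a Chinese indigenous breed, and of Landrace (LC), a commercial breed. Their members were all listed miRNAs whose name holds miR-101, miR-148 or miR-152, with or without the pig prefix ssc- and an arm or form ending. This rule took 15 of the 1452 listed miRNAs, 4 of them named miR-101 and 11 named miR-148 or miR-152. Of the 15, 6 carry the prefix ssc- and were listed by the authors as exist miRNAs, and 9 carry the endings -x, -y or -z and were listed as known miRNAs. There were 4 groups of 3 libraries each: Ha (HZ, 30 days of age, sexually immature), Hb (HZ, 120 days, sexually mature), La (LC, 30 days) and Lb (LC, 120 days). No treatment or genetic change was applied to any group. Each breed had 3 boars at each age, and the series calls the 3 libraries of a group biological replicates. The methods also describe RNA taken from pooled samples, so whether 1 library holds 1 boar is not clear, and p-values measure the spread between these libraries. Levels below are TPM as deposited, in which the count of a miRNA is divided by the total of its library and scaled up by a fixed factor.

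A miRNA is a short RNA that guides a silencing complex to messenger RNAs, mainly by pairing through its seed, the bases 2 to 8 from its 5′ end. miR-101 is known for lowering EZH2, the enzyme of Polycomb repressive complex 2 that methylates lysine 27 of histone H3, and miR-148 and miR-152 are known for lowering DNMT1, the methyltransferase that keeps DNA methylation in place after replication. In the testis, DNA methylation and Polycomb marks are laid down and rewritten as germ cells move from mitotic growth into meiosis and sperm formation. Neither the messenger RNAs of these enzymes nor their proteins were measured in these libraries.

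The listed sequences show which of the 15 names belong together. They are given with T in place of U, as deposited, and the seed is in capitals. The miR-101 members come first, because their forms differ at the ends and in 1 case in the seed.
ssc-miR-101: tACAGTACtgtgataactgaa
miR-101-y: tACAGTACtgtgataactgact
miR-101-z: aCAGTACTgtgataactgacc
miR-101-x: tCAGTTATcacagtgctgatgc

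Counting from 1 at the 5′ end of ssc-miR-101, miR-101-y carried A21C and 1 further base, T, at the 3′ end, and shared the seed of ssc-miR-101. In miR-101-z the start lay 1 base further in, with A21C and a further C, so that its seed differs. miR-101-x is a form from the other arm of a miR-101 hairpin, and its seed was held by no other listed miRNA. The 3 main miRNAs of the miR-148 and miR-152 family shared 1 seed and differ behind it, and they are shown because the results separate them.
ssc-miR-148a-3p: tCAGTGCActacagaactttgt
ssc-miR-148b-3p: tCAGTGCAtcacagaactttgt
ssc-miR-152: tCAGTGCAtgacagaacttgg

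From ssc-miR-148a-3p to ssc-miR-148b-3p the substitutions were C9T and T10C, and from ssc-miR-148a-3p to ssc-miR-152 they were C9T, T10G and T20G. In all, 7 of the 1452 listed miRNAs held the seed CAGTGCA, all 7 members, and 2 held ACAGTAC, ssc-miR-101 and miR-101-y. The other 4 members with the seed CAGTGCA were longer forms, and they are shown because their names do not follow their sequences.
miR-148-z: tCAGTGCActacagaactttgtta
miR-152-z: tCAGTGCAtcacagaactttgttc
miR-152-y: tCAGTGCAtgacagaacttggta
miR-148-y: tCAGTGCAtgacagaacttggta

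miR-148-z was ssc-miR-148a-3p with TA added at its 3′ end. miR-152-z was ssc-miR-148b-3p with TC added, although it is named after miR-152. miR-152-y and miR-148-y had the same listed sequence, ssc-miR-152 with TA added, but not the same counts, so 1 sequence was listed under several names. The remaining members came from the 5p arms: ssc-miR-148a-5p, ssc-miR-148b-5p and miR-148-x shared the seed AAGTTCT, which 1 listed miRNA outside the families also held, and miR-152-x had a seed of its own.

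In the RefSeq annotation of Sscrofa11.1, 5 genes give rise to these miRNAs. MIR101-1 lies at chr1:217152783-217152873 within the bounds of RCL1, and MIR101-2 at chr6:147330891-147330971 within the bounds of JAK1, which encodes a kinase of cytokine signalling. MIR148B lies at chr5:19530990-19531069 within COPZ1 and MIR152 at chr12:24292249-24292328 within COPZ2, a pair of paralogues that encode zeta subunits of the COPI vesicle coat. MIR148A lies at chr18:46415213-46415280 inside no annotated gene, and the nearest protein-coding gene, NFE2L3, is 164904 bases away. The annotation used here gives gene bounds and not exons, so exon and intron were not separated.

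The 12 libraries held 6520197 to 16874633 counts of listed miRNAs, and 3 counts, the least taken as detected, were worth 0.158 to 0.404 TPM depending on the library (counting error only). Summed ssc-miR-202, the miRNA of the gonad, lay at 9575 TPM or above in every library. ssc-miR-34c marks meiotic and haploid germ cells and was the only 1 of 5 such names listed with the prefix ssc-. It was at 12.5 to 62.0 TPM in the libraries aged 30 days and at 9330 to 11634 TPM in Lb. Markers were looked up only among names with that prefix, here and below. The Hb libraries stood apart from each other, with 1218, 1732 and 11014 TPM of ssc-miR-34c in Hb1, Hb2 and Hb3, and Hb2 had the 9575 TPM of miR-202 against 17214 and 16329 TPM in Hb1 and Hb3. In ssc-miR-34c, Hb1 and Hb2 lay below every Lb library, although the study calls HZ sexually mature at 120 days from histology. Values without single Hb libraries are therefore given for the main results that rest on Hb, but not for the other miRNAs named at the end. In whole testis, fewer cells of a type and less RNA per cell cannot be told apart.

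Of all listed tags the families together took 2.05 ± 0.0978% (Ha), 2.53 ± 0.444% (Hb), 2.24 ± 0.0439% (La) and 2.13 ± 0.13% (Lb; SD, n = 3 each). By mean level over the 12 libraries ssc-miR-148a-3p ranked 23 of 1452, ssc-miR-152 ranked 39, miR-101-y 46, ssc-miR-101 50 and ssc-miR-148b-3p 75. The passenger arms were far lower. The means of ssc-miR-148a-5p lay between 81.8 and 127 TPM and those of miR-101-x between 7.73 and 16.8 TPM. At the low end were miR-152-x, with 32 counts, and miR-148-x, with 20 counts over all libraries. All 15 members had at least 1 count in each comparison and were tested, and 13 passed a stricter filter on low counts (filterByExpr of edgeR), which left out miR-152-x and miR-148-x.

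ssc-miR-101 was highest in Hb, the HZ testes that the study calls sexually mature. Its level was 1898, 1882 and 1814 TPM in Ha1 to Ha3, and 2784, 3544 and 3848 TPM in Hb1 to Hb3. In La it was 2188, 2377 and 2294 TPM, and in Lb 2252, 2094 and 2373 TPM. Every Hb library was above every other library, La and Lb overlapped, and every Ha library was below all others. The order of the means was thus Hb (3392 ± 548 TPM), La (2286 ± 95.0), Lb (2240 ± 140) and Ha (1865 ± 44.8; SD, n = 3 each), in which the neighbours La and Lb were not separated.

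**Figure D1:**
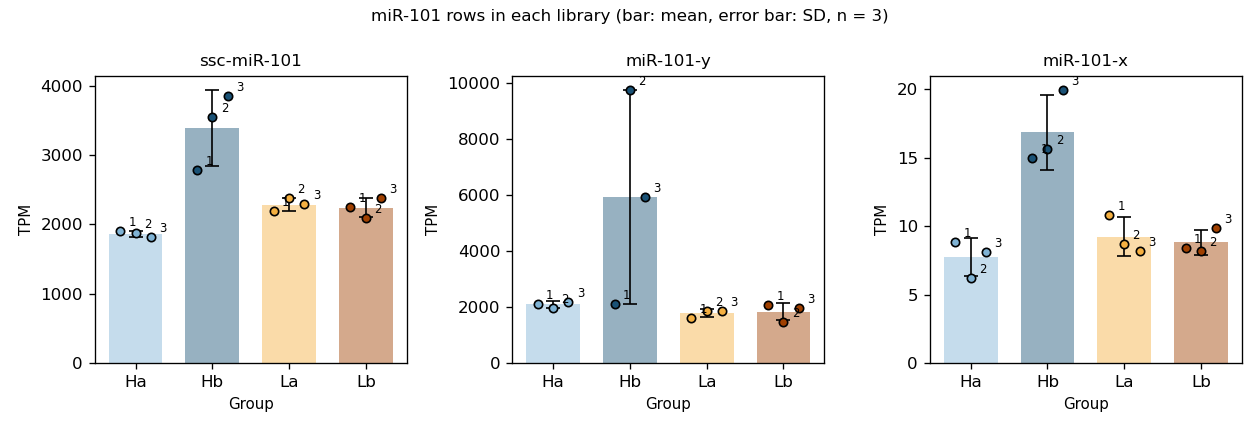
Levels of ssc-miR-101, miR-101-y and miR-101-x in TPM, by group (numbered points are libraries, bars are means and error bars SD, n = 3). ssc-miR-101 and miR-101-x are higher in all 3 Hb libraries than in the Ha libraries, while miR-101-y spans 2114 to 9750 TPM within Hb.

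The comparison of Ha with Hb asked which miRNAs differ between the ages in HZ, where age and sexual maturity cannot be told apart. On counts scaled by the trimmed mean of M values (TMM), the edgeR quasi-likelihood test gave ssc-miR-101 a log2 fold change of 1.05 (SE 0.28, Benjamini-Hochberg adjusted p = 0.0107 over all miRNAs tested), higher at 120 days. It rose in company with miR-101-y, at 1.82 (SE 0.50, adjusted p = 0.0121), and miR-101-x, at 1.28 (SE 0.35, adjusted p = 0.0121). The fourth form, miR-101-z, had 1.67 (SE 0.63) and did not pass, with an adjusted p of 0.0539, but it passed without Hb1 (2.31, adjusted p = 0.000211) and without Ha1 (1.84, adjusted p = 0.0404), while without Hb2 it was 1.02 (adjusted p = 0.109) and without Ha2 1.44 (adjusted p = 0.181). Thus 3 of the 15 members were called higher at 120 days, all of them miR-101, against 21.3% of all miRNAs tested, and 1 was called lower, against 13%. With the rule of the study, in which the level changes by more than 1 on the log2 scale at an unadjusted p under 0.05, the counts were 4 and 1, against 25.1% and 14.4%. The median log2 fold change was 0.039 over the 15 members, 0.315 over all miRNAs tested and 0.013 over those with a mean of at least 10 TPM.

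The size of the miR-101 rise depended on single Hb libraries. Without Hb2 the log2 fold change of ssc-miR-101 was 0.81 (adjusted p = 0.00191), and without Hb1 it was 1.43 (adjusted p = 0.000126). It missed the threshold without Ha1, at 1.11 with an adjusted p of 0.0521. For miR-101-y the value was 0.97 (adjusted p = 0.00406) without Hb2 and 2.42 (adjusted p = 6.52e-06) without Hb1, and its adjusted p was 0.0527 without Ha2. A replicate block in the fit gave miR-101-y 1.39 (adjusted p = 0.0632). miR-101-x missed the threshold without Ha2 (1.17, adjusted p = 0.0722) and when counts were scaled by library size alone (1.13, adjusted p = 0.0606).

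No such rise was measured in LC. Between La and Lb the log2 fold change was -0.21 for ssc-miR-101 (SE 0.10, adjusted p = 0.114), -0.15 for miR-101-y (SE 0.12, adjusted p = 0.366) and -0.24 for miR-101-x (SE 0.21, adjusted p = 0.405). The direct test of whether the age difference differed between the breeds, over all 12 libraries, gave ssc-miR-101 -1.32 (SE 0.31, adjusted p = 0.0476), where a negative value is a smaller rise in LC. ssc-miR-101 was the single member called in this test. Counts were 1 of 15 lower, against 0.62% of all miRNAs, and 0 higher, against 0.758%; at an unadjusted p under 0.05 they were 3 and 1, and by DESeq2 3 and 0. miR-101-x had -1.58 (SE 0.38, adjusted p = 0.0529) and miR-101-y -2.02 (SE 0.62, adjusted p = 0.0832). Without Hb1 both passed (-1.80 and -2.49, adjusted p = 0.00335 and 0.000645), while without Hb2 they were -1.36 and -1.08 and did not. The call of ssc-miR-101 was lost without any single library other than Hb1, with adjusted p between 0.0557 and 0.136, where the difference lay between -1.375 and -0.98, and it was kept without Hb1 (-1.57, adjusted p = 0.000568).

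Between the breeds at 30 days, ssc-miR-101 was higher in LC, with a log2 fold change from Ha to La of 0.38 (SE 0.10, adjusted p = 0.0184) and no overlap of the libraries. Its call was lost without Ha1, La2 or La3 (adjusted p = 0.0883, 0.0950 and 0.0801) and with library size alone (0.28, adjusted p = 0.0613). All 12 libraries in 1 fit lost it as well (0.39, adjusted p = 0.522). miR-101-y did not follow it, at -0.14 (SE 0.10, adjusted p = 0.461). At 120 days the direction of ssc-miR-101 was opposite. From Hb to Lb it had -1.005 (SE 0.32), which did not pass after adjustment (adjusted p = 0.0944) but passed without Hb1 (-1.285, adjusted p = 0.0087) and was -0.62 (adjusted p = 0.163) without Hb2, and miR-101-y had -2.27 (SE 0.57, adjusted p = 0.0478), called lower in LC. Without Hb2 the latter was -1.24 (adjusted p = 0.139), and it was also lost without Hb3, Lb1 or Lb2 (adjusted p between 0.0840 and 0.158). Library size alone, filterByExpr, merged sequences and robust estimation lost this call of miR-101-y too (adjusted p between 0.0529 and 0.136). The 4 comparisons share libraries in pairs, so their values for 1 member are not independent.

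miR-101-y, which carries A21C and an added T, was uneven within Hb. It was at 2109, 1977 and 2200 TPM in Ha and at 2114, 9750 and 5937 TPM in Hb. In La it was at 1621, 1866 and 1878 TPM, and in Lb at 2073, 1488 and 1954 TPM. Hb1 lay within the range of Ha, while Hb2 and Hb3 were above every other library. Hb2, with the highest miR-101-y, was also the library with the lowest miR-202, whereas Hb3, the next, had the highest miR-34c of Hb; their part in the result was not tested. miR-101-z varied along with it, at 1.35, 8.40 and 7.21 TPM in Hb1 to Hb3 and between 1.31 and 3.18 TPM elsewhere.

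The share of miR-101-y in the sum of miR-101-y and ssc-miR-101 gives the balance of these 3′ ends without any scaling between libraries. It was 52.6, 51.2 and 54.8% in Ha, 43.2, 73.3 and 60.7% in Hb, 42.6, 44.0 and 45.01% in La, and 47.9, 41.5 and 45.2% in Lb. Every Ha library was above every La library, La and Lb overlapped, and Hb overlapped each of the other groups. With 3 libraries against 3 an exact permutation test cannot go below p = 0.10, and none was run.

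Because their sequences are nearly the same, ssc-miR-101, miR-101-y and miR-101-z were also summed, here called miR-101-3p; whether they come from 1 mature miRNA was not tested. The sums were 4010, 3860 and 4016 TPM in Ha, 4900, 13303 and 9792 TPM in Hb, 3810, 4245 and 4174 TPM in La, and 4328, 3583 and 4328 TPM in Lb. All Hb libraries were above all others, which overlapped. The summed form rose from Ha to Hb with a log2 fold change of 1.52 (SE 0.40, adjusted p = 0.00992), and without Hb2 it was 0.91 (adjusted p = 0.00144). In LC it changed by -0.18 (adjusted p = 0.187). From Ha to La it was 0.10 (adjusted p = 0.558), so that the breed difference of ssc-miR-101 at 30 days was not called on the sum. From Hb to Lb it was -1.70 (adjusted p = 0.0666), and the difference between the breeds in the age difference was -1.76 (adjusted p = 0.0655); neither passed. Without Hb1 both passed, at -2.11 (adjusted p = 0.00389) and -2.15 (adjusted p = 0.000532), and the former also without Lb3 (-1.76, adjusted p = 0.0478). Without Hb2 they were -1.002 (adjusted p = 0.134) and -1.06 (adjusted p = 0.102).

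miR-101-x, from the 5p arm, moved with the guide arm. It was at 8.85, 6.19 and 8.15 TPM in Ha, 14.95, 15.6 and 19.95 TPM in Hb, 10.8, 8.72 and 8.17 TPM in La and 8.41, 8.18 and 9.88 TPM in Lb. All Hb libraries were above all others. There were 186 to 304 counts of ssc-miR-101 for each count of miR-101-x over the 12 libraries, and Hb, at 186 to 227, lay below Lb, at 240 to 268, while the other pairs of groups overlapped. With the summed miR-101-3p in place of ssc-miR-101 that separation was lost, at 328 to 853 in Hb and 438 to 515 in Lb.

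**Figure D2:**
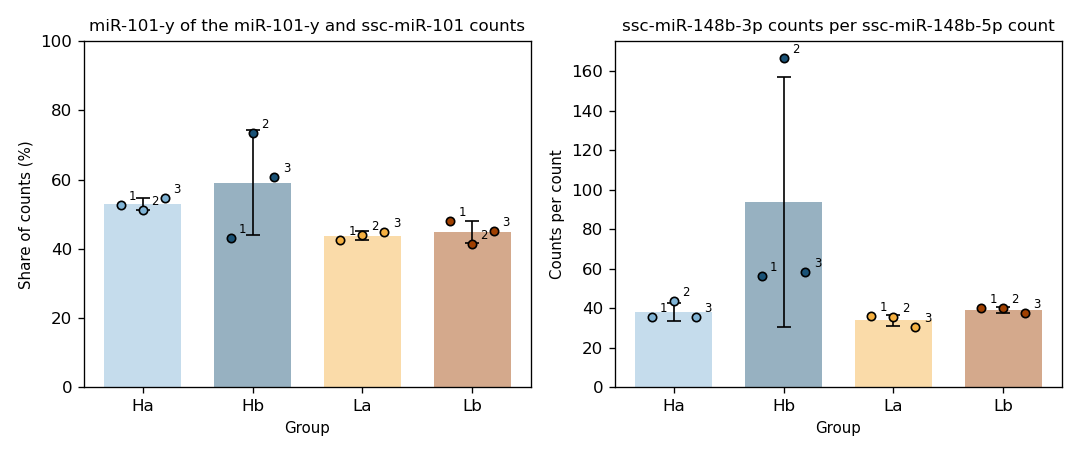
Share of miR-101-y among miR-101-y and ssc-miR-101 counts, in percent (left), and counts of ssc-miR-148b-3p per count of ssc-miR-148b-5p (right), by group (numbered points are libraries, bars are means and error bars SD, n = 3). Ha lies above La in the share, and Hb2 stands at 73.3%; for miR-148b the Hb libraries lie above Ha, at 56.4 to 166.9 counts per count.

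In the miR-148 and miR-152 family, ssc-miR-148a-3p was the highest member in every library and fell with age in LC. Its level was 11653, 10714 and 11189 TPM in La and 8493, 9822 and 7380 TPM in Lb. In Ha it was 9964, 9794 and 8808 TPM, and in Hb 7611, 8400 and 6903 TPM. In both breeds no library aged 120 days reached the range of the same breed at 30 days. From La to Lb the log2 fold change was -0.56 (SE 0.12, adjusted p = 0.0026), and the adjusted p was at most 0.0322 in all alternatives that were tested. The size shrank to -0.35 (adjusted p = 0.0202) with library size alone and to -0.39 from mean TPM, which has no test. It was the single member called in LC. Counts were 1 of 15 lower, against 13.4% of all miRNAs tested, and 0 higher, against 26.8%; at an unadjusted p under 0.05 the latter was 1, ssc-miR-148b-3p, and by DESeq2 it was 0. With the rule of the study no member was called, against 32.1% in either direction, and the median log2 fold change was -0.063 over the members, 0.319 over all and -0.063 over those averaging 10 TPM or more.

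In HZ the fall of ssc-miR-148a-3p was not called. Although the TPM of Hb lay below that of Ha, the TMM-scaled log2 fold change was -0.14 (SE 0.26, adjusted p = 0.702). It was -0.45 (adjusted p = 0.0396) without Hb2 and 0.16 (adjusted p = 0.643) without Hb1, so its direction changed with the library left out. The difference between the breeds in the age difference was -0.48 (SE 0.29, adjusted p = 0.376), and it was not shown that the breeds differ. At 30 days ssc-miR-148a-3p was higher in LC, at 0.32 (SE 0.09, adjusted p = 0.0312). It and ssc-miR-101 were the 2 of 15 members called higher from Ha to La, against 5.01% of all miRNAs tested; 0 were called lower, against 6.34%, also 0 at an unadjusted p under 0.05 and by DESeq2. The call of ssc-miR-148a-3p was lost without Ha1, La1, La2 or La3, with library size alone and with all 12 libraries in 1 fit (adjusted p = 0.621).

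**Figure D3:**
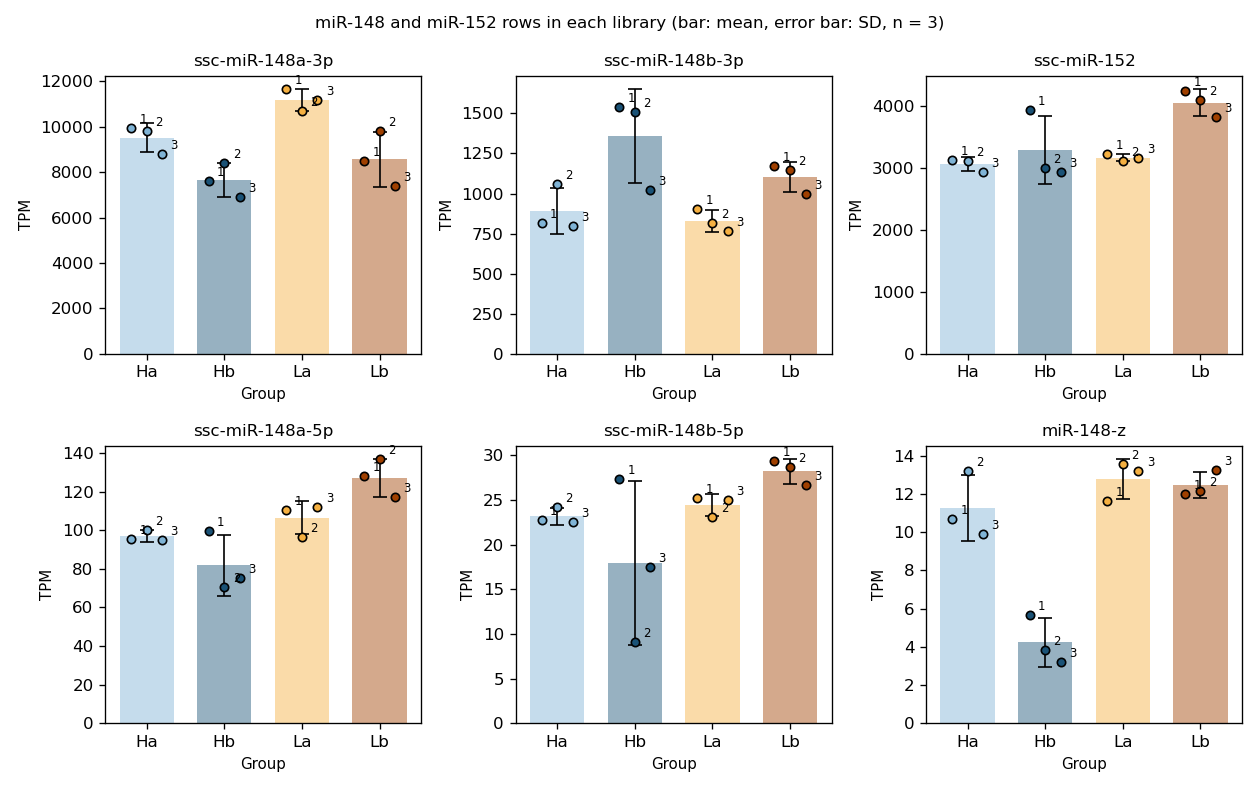
Levels of 6 miR-148 and miR-152 members in TPM, by group (numbered points are libraries, bars are means and error bars SD, n = 3). ssc-miR-148a-3p lies lower at 120 days than at 30 days in both breeds, and miR-148-z lies at 3.22 to 5.66 TPM in Hb against 9.91 TPM or more elsewhere.

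ssc-miR-148b-3p had higher mean levels at 120 days without passing the test. It was at 815, 1057 and 798 TPM in Ha and at 1543, 1511 and 1019 TPM in Hb. In La it was at 904, 814 and 767 TPM, and in Lb at 1172, 1144 and 998 TPM. The LC groups did not overlap, and in HZ Hb3 lay within the range of Ha. The log2 fold change was 0.77 (SE 0.29, adjusted p = 0.0545) from Ha to Hb and 0.24 (SE 0.10, adjusted p = 0.0879) from La to Lb. Both were near the threshold: the former passed without Hb1 (1.01, adjusted p = 0.0120) or Hb3 (0.97, adjusted p = 0.0239) and was 0.44 without Hb2, and the latter passed without Lb3 (0.34, adjusted p = 0.0199) and with library size alone (0.45, adjusted p = 0.00563). ssc-miR-152 was at 2931 to 3131 TPM in Ha, 2940 to 3928 in Hb, 3116 to 3221 in La and 3817 to 4239 in Lb. Lb was above La in every library, but the test gave 0.18 (SE 0.09, adjusted p = 0.150), which passed with library size alone (0.39, adjusted p = 0.00404). From Ha to Hb it was 0.23 (SE 0.23, adjusted p = 0.45).

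Within a library, the makeup of this seed family shifted from ssc-miR-148a-3p at 30 days to its paralogues at 120 days. Of the summed counts of ssc-miR-148a-3p, ssc-miR-152 and ssc-miR-148b-3p, the first made up 70.1 to 71.6% in Ha, 58.2 to 65.1% in Hb, 73.2 to 74.1% in La and 60.5 to 65.2% in Lb. ssc-miR-148b-3p made up 5.86 to 7.57% in Ha, 9.38 to 11.8% in Hb, 5.08 to 5.73% in La and 7.59 to 8.43% in Lb. ssc-miR-152 made up 22.3 to 23.4%, 23.2 to 30.0%, 20.4 to 21.3% and 27.2 to 31.3% in the same order. For the shares of ssc-miR-148a-3p and ssc-miR-148b-3p the ages did not overlap in either breed, and for ssc-miR-152 they did not overlap in LC. These are shares of 3 levels that were partly tested above and carry no test of their own.

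Among the longer forms, miR-148-z, which is ssc-miR-148a-3p with TA added, was low in Hb. It was at 10.7, 13.2 and 9.91 TPM in Ha and at 5.66, 3.82 and 3.22 TPM in Hb. La, at 11.6 to 13.6 TPM, and Lb, at 12.0 to 13.3 TPM, overlapped, and Hb lay below every library of the other groups. It was the 1 member called lower from Ha to Hb, at -1.30 (SE 0.36, adjusted p = 0.0128), a call lost without Ha2 (adjusted p = 0.0754) or Hb3 (adjusted p = 0.0605). In LC it was -0.22 (adjusted p = 0.401) and from Hb to Lb 1.24 (SE 0.36, adjusted p = 0.0824). The latter passed without Hb2 (1.485, adjusted p = 0.0482), by DESeq2 (adjusted p = 0.0261) and with all 12 libraries in 1 fit (adjusted p = 0.00937), and was 1.09 (adjusted p = 0.203) without Hb3. The difference between the breeds in the age difference was 1.02 (SE 0.37, adjusted p = 0.124).

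miR-152-y and miR-148-y, the forms of ssc-miR-152 with TA added, had means of 285.5 to 352 TPM and of 214.5 to 247 TPM over the groups and were called in no comparison. miR-152-z, the form of ssc-miR-148b-3p, had means of 2.89 to 5.55 TPM and was likewise not called. Summed by sequence, miR-148a-3p fell from La to Lb by 0.56 on the log2 scale (adjusted p = 0.00275) and was higher in La than in Ha by 0.29 (adjusted p = 0.0443), a call lost without Ha1, La1, La2 or La3 (adjusted p between 0.0716 and 0.105). The summed miR-148b-3p had 0.78 (adjusted p = 0.0545) from Ha to Hb, and the summed miR-152-3p was called in no comparison.

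The balance of 3p and 5p arms differed between some groups, without a test of its own. ssc-miR-148a-5p was at 95.0 to 100 TPM in Ha, 70.6 to 99.8 in Hb, 96.8 to 112 in La and 117 to 137 TPM in Lb, and was called in no comparison. The counts of ssc-miR-148a-3p per count of ssc-miR-148a-5p were 92.7 to 104 in Ha, 76.3 to 119 in Hb, 99.8 to 111 in La and 63.0 to 71.9 in Lb, so that every Lb library lay below every La library. For miR-148b the 3p arm had 35.5 to 43.6 counts per 5p count in Ha, and 56.4, 166.9 and 58.2 in Hb1 to Hb3. In La it had 30.7 to 35.9 and in Lb 37.5 to 40.0. Every Hb library was above every Ha library and every Lb library above every La library. In Hb2 the high ratio went with 9.05 TPM of ssc-miR-148b-5p, against 27.3 and 17.5 TPM in Hb1 and Hb3 and 22.5 to 29.3 TPM in the other groups, and this 5p form was called in no comparison. The 5p form of miR-152 was too rare for a ratio.

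Over all members, the breeds at 120 days gave 1 of 15 called lower in LC, miR-101-y, against 2.15% of all miRNAs tested, and 0 called higher, against 1.11%. At an unadjusted p under 0.05 the counts were 5 lower and 1 higher, and by DESeq2 2 and 1. With the rule of the study they were 4 lower, against 8.38%, and 1 higher, against 8.45%. Those 4 were the miR-101 members, and the 1 was miR-148-z. The median log2 fold change from Hb to Lb was -0.160 over the members, 0.056 over all miRNAs and 0.015 over those with a mean of at least 10 TPM. From Ha to La, where no member passed the rule of the study against 9.47% of all miRNAs, the medians were 0.113, -0.011 and 0.029 in the same order.

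**Figure D4:**
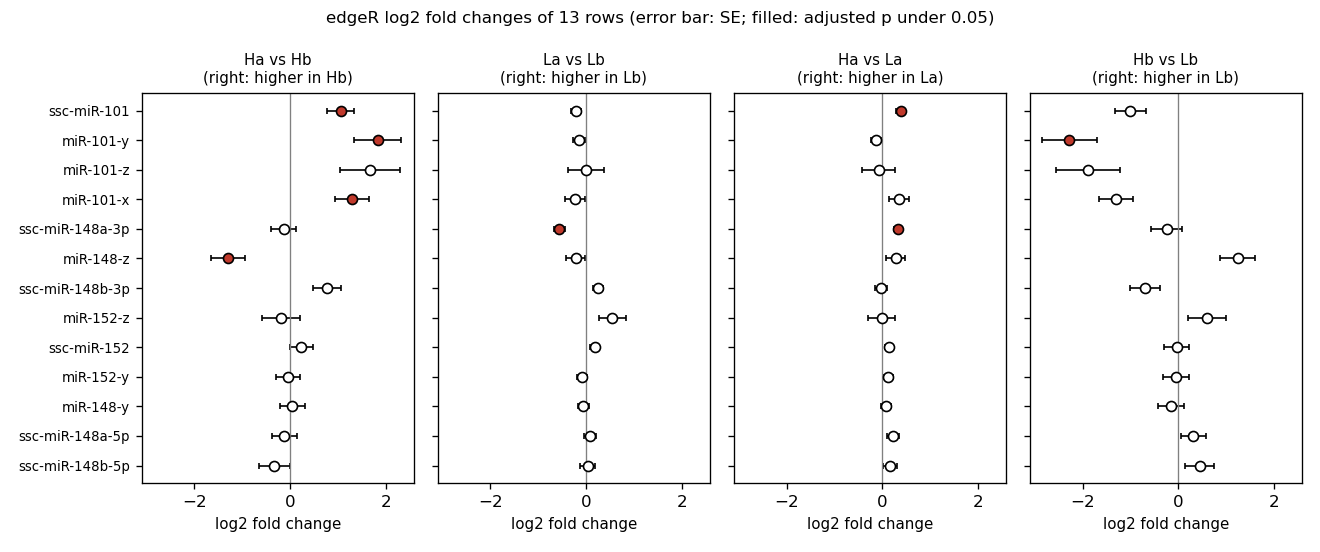
Log2 fold changes of 13 members, without miR-152-x and miR-148-x, in the 4 comparisons of groups (points are edgeR estimates, error bars their SE, and filled points have an adjusted p under 0.05). The miR-101 members lie above 0 from Ha to Hb and below 0 from Hb to Lb, while ssc-miR-148a-3p lies at -0.56 from La to Lb.

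Markers of other cells moved with age as well. Summed leukocyte miRNAs (miR-142, miR-150 and miR-223, 4 of 4 listed forms above 0 in every library) were at 1016 to 1061 TPM in Ha, 402.5 to 842.5 in Hb, 1276 to 1417 in La and 730 to 1141 in Lb. Summed erythroid miRNAs (miR-144, miR-451 and miR-486) were at 1284 to 1673, 829 to 2228, 2085 to 2348 and 1152 to 1192 TPM. Striated muscle miRNAs were at 129 to 278, 434 to 723, 106 to 199 and 677 to 819 TPM, and miR-126 of endothelium at 12482 to 15560, 11040 to 11910, 11485 to 13103 and 8529 to 10997 TPM, in the same order. Summed epithelial miRNAs (3 of 5 names listed with the prefix ssc-) were at 28.2 to 150 TPM in all. The fall of ssc-miR-148a-3p in LC thus went with lower leukocyte, erythroid and endothelial miRNAs and higher muscle miRNAs, ssc-miR-34c and miR-202. The rise of ssc-miR-101 in HZ went with lower leukocyte and endothelial miRNAs and higher muscle miRNAs and ssc-miR-34c, without overlap of Ha and Hb. In LC these markers moved the same way, while no rise of ssc-miR-101 was measured. The marker values are levels in TPM. On TMM-scaled counts the endothelial ssc-miR-126-3p had -0.33 (adjusted p = 0.343) and ssc-miR-126-5p 0.066 (adjusted p = 0.865) from Ha to Hb, and neither was called. Summed miR-202 lay lower in Hb (9575 to 17214 TPM) than in Ha (18568 to 21737 TPM) and higher in Lb (17897 to 24312 TPM) than in La (15179 to 17180 TPM), so this gonad marker differed with age in opposite directions in the breeds, as levels in TPM. The part of these cells in either result was not tested.

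Other miRNAs described as acting on the same enzymes, or on DNMT3A and DNMT3B, gave 18 listed names, of which 16 had a mean of at least 10 TPM. The list went by name and took either arm, and whether the described action holds for each arm was not checked. The miR-29 and miR-143 families are known for DNMT3A and DNMT3B, miR-26 and miR-214 for EZH2, and miR-126 for DNMT1. From Ha to Hb 6 of the 18 rose, ssc-miR-29c (log2 fold change 2.82), ssc-miR-29b (2.60), ssc-miR-29a-3p (2.225), ssc-miR-143-3p (1.74), ssc-miR-217 (1.70) and ssc-miR-26b-5p (0.87), and 1 fell, ssc-miR-214-3p (-0.77). From La to Lb 9 rose, among them ssc-miR-217 (3.33), ssc-miR-143-5p (1.605), ssc-miR-29b (1.52) and ssc-miR-29c (1.42), and 6 fell, among them ssc-miR-26a (-0.93) and ssc-miR-126-3p (-0.68). These stand beside 34.3% and 40.2% of all miRNAs called in either direction, and the medians over the 18 names were 0.197 and 0.349.

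The miRNAs known for EZH2 did not move as 1 group from Ha to Hb. ssc-miR-217 and ssc-miR-26b-5p rose and ssc-miR-214-3p fell, as given above, while ssc-miR-26a had 0.33 (adjusted p = 0.40) and ssc-miR-124a -0.01 (adjusted p = 0.974). The forms from the other arm, ssc-miR-214-5p and ssc-miR-26b-3p, had -0.33 (adjusted p = 0.42) and -0.0066 (adjusted p = 0.994). The level of ssc-miR-26b-5p, the nearest in profile to ssc-miR-101, went from 942 to 1000 TPM in Ha to 1515 to 1770 TPM in Hb. In LC it had -0.06 (adjusted p = 0.704). The breeds at 30 days gave 0 of 18 calls by edgeR, against 11.3% of all miRNAs, with 3 at an unadjusted p under 0.05 and 0 by DESeq2, and 1 was called lower with library size alone. At 120 days 2 were lower in LC by edgeR (10 names at an unadjusted p under 0.05 and 4 by DESeq2 in either direction), ssc-miR-29a-3p (-1.69, adjusted p = 0.0297) and ssc-miR-29b (-1.51, adjusted p = 0.0393), against 3.25% of all miRNAs in either direction. ssc-miR-29a-3p was also the single name called for a difference between the breeds in the age difference by edgeR (-1.73, adjusted p = 0.0377, against 1.38%), with 9 names at an unadjusted p under 0.05 and 6 by DESeq2. With library size alone no name was called at 120 days or for the difference between the breeds, and no called name changed direction.

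The levels most like each main member over the 12 libraries were found by the root mean square difference of log2(TPM + 1), each centred on its mean, among 426 listed miRNAs of other sequence with a mean of at least 10 TPM. For ssc-miR-101 these were ssc-miR-26b-5p (0.153 on the log2 scale), miR-191-x (0.194) and ssc-miR-30a-5p (0.207), with a median of 0.732 over all 426. For ssc-miR-148a-3p they were miR-99-z (0.156), miR-99-x (0.163) and miR-199-y (0.175), and for ssc-miR-148b-3p ssc-miR-95 (0.216), miR-100-z (0.235) and miR-100-x (0.239). ssc-miR-152 varied little, and ssc-let-7g (0.112), ssc-miR-30c-3p (0.116) and miR-151-x (0.144) were nearest to it. This is a description of the same 12 libraries, which share their depth and scaling.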

How the data were processed

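Testis small RNA of 12 libraries was analysed as deposited. The authors trimmed reads with fastp, removed tags of other RNAs and matched the rest to miRBase, and predicted further miRNAs with miRDeep2. The deposited counts are whole tag counts per miRNA and library, not normalized. For TPM, the authors divided a count by its library total, and a count of 0 is written as 0.01. Hairpin positions of predicted miRNAs, in another column that the authors deposited, were used for overlap only.

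Counts were tested with edgeR 4.0.16 in R 4.3.3 (glmQLFit and glmQLFTest, TMM), over all miRNAs with at least 1 count in the libraries of a fit. A miRNA was called at a Benjamini-Hochberg adjusted p under 0.05. The test of the difference between the breeds used all 12 libraries. Forms were summed by sequence, with up to 2 mismatches and a start shifted by up to 2 bases. Alternatives were DESeq2 1.42.0, other scalings and filters, robust estimation, a replicate block, merged sequences and leaving out each library. Tables and plots used Python 3.11.15. On simulated counts with 200 miRNAs changed 4-fold, 165 (82.5%) were called for Ha against Hb, with 2 false calls among 1241. For Hb against Lb 168 (84%) were called, with 6 among 1244, and for the difference between the breeds 137 (68.5%), with 3 among 1252. The changed miRNAs were drawn only from those above a minimum mean count, and the spread followed the fitted trend. Smaller changes, such as that of ssc-miR-101, were not simulated, nor were single deviating libraries.

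Names are printed for all members, all miRNAs with their main seeds, the enzyme list at 10 TPM or more and the 3 nearest profiles. Members and lists were chosen with earlier results of these data known. Libraries of a group differed by more than counting noise (chi-square per degree of freedom 49.4 to 1178).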

Additional observations from a re-analysis of the deposited data

Results flagged for a closer look

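The difference between the breeds in the age difference of ssc-miR-101 was -1.32 on the log2 scale (edgeR quasi-likelihood test, SE 0.31, adjusted p = 0.0476): fitted for each breed alone, the change from 30 to 120 days was 1.05 in HZ and -0.21 in LC. It stands here because a test of the difference itself passed. The call was lost when any 1 of 11 of the 12 libraries was left out (-1.375 to -0.98, adjusted p 0.0557 to 0.136), the exception being Hb1, and also with library size alone (-0.87, adjusted p = 0.0779) and with identical sequences merged (-1.33, adjusted p = 0.0556). The Hb libraries differ among themselves in ssc-miR-34c and miR-202, whose part in the result was not tested. No formal outlier test was run on groups of 3 libraries.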

How the results depend on the processing

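No result changed direction while called. For ssc-miR-101, the range over fits that leave out 1 library was 0.81 to 1.43 from Ha to Hb, -0.27 to -0.18 from La to Lb, 0.34 to 0.43 from Ha to La, -1.285 to -0.62 from Hb to Lb and -1.57 to -0.98 for the difference between the breeds. With library size alone it was 0.28 from Ha to La and -0.87 for the difference between the breeds, both no longer called. With all 12 libraries in 1 fit it was 0.39 (adjusted p = 0.522) from Ha to La and -0.93 (adjusted p = 0.0149) from Hb to Lb. With identical sequences merged the difference between the breeds was -1.33 (adjusted p = 0.0556). From mean TPM it was -0.030 from La to Lb, -0.60 from Hb to Lb and -0.89 for the difference between the breeds.

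The number of members called moved as follows. From Ha to Hb it was 5 higher with all 12 libraries in 1 fit, 4 with RLE normalization, 2 with library size alone and with the replicate block, and 1 to 5 higher and 0 to 2 lower when 1 library was left out. From La to Lb it was 3 higher with library size alone, and 0 to 1 when 1 library was left out. From Ha to La it was 0 higher with library size alone and with all 12 libraries in 1 fit, and 0 to 2 when 1 library was left out. From Hb to Lb it was 1 higher by DESeq2, with all 12 libraries and with the replicate block. The number lower was 0 with library size alone, filterByExpr, merged sequences and robust estimation, 2 by DESeq2, and 3 with all 12 libraries and with the replicate block, and leaving out 1 library gave 0 to 1 higher and 0 to 4 lower. For the difference between the breeds it was 2 lower with RLE normalization, filterByExpr and robust estimation, 3 by DESeq2, 0 with library size alone and merged sequences, and 0 to 4 when 1 library was left out. The causes were not tested.

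Library size alone moved the median log2 fold change of all miRNAs by 0.22 from La to Lb, 0.27 from Hb to Lb and 0.33 for the difference between the breeds. Over all 12 libraries the TMM factors ran from 0.694 in Hb2 to 1.195 in Hb1. Whether replicate numbers pair the libraries was not settled. Same-number correlations of deviations ran from -0.26 to 0.19, with 6 of 12 over 0.1, and the best match had the same number in 11 of 24 cases. From Hb to Lb the replicate block gave 68 miRNAs called higher and 70 lower, against 16 and 31 without it. From Ha to Hb it gave 224 and 159, against 307 and 187. With the replicate block, miR-101-y from Ha to Hb was 1.39 (adjusted p = 0.0632), and from Hb to Lb miR-148-z (1.27), miR-101-x (-1.24) and miR-101-z (-1.53) were called. With log2(TPM + 5), 1 of 3 nearest profiles of ssc-miR-101 and 2 of 3 of ssc-miR-148b-3p were shared. Counting error limits miR-152-x and miR-148-x, at 32 and 20 counts in all.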

Other observations

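Of the 332 predicted miRNAs, 2 came from hairpins placed inside genes of these families. The first hairpin, at chr1:217152802-217152852 on the minus strand, lay within MIR101-1 and had 16 counts in all, and the longest run it shared with ssc-miR-101 was 18 bases. Its longest run shared with miR-101-x was 6 bases. The other hairpin, at chr12:24292267-24292319 on the minus strand, lay within MIR152 and had 55 counts, and it shared runs of 18 bases with ssc-miR-152 and with miR-152-x. They were not added to the families.

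The balance of miR-101-y and ssc-miR-101 was set beside that of 62 pairs of listed miRNAs that share their first 18 bases and have at least 10 TPM each. The log2 ratio changed by 0.40 from Ha to Hb, place 20 from the top, where the median was -0.11 and the range -1.60 to 2.31. From La to Lb it changed by 0.06, with a median of 0.10. Between Hb and Lb it differed by -0.86, the 8th lowest, with a median of 0.01. Many pairs share a family, so they are not independent.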
